A study of Mus musculus with 16 samples.

Results

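The enzymes that turn arginine into polyamines were followed here in ILC2 (group 2 innate lymphoid cells), lymphocytes that reside in tissues and make type 2 cytokines. The set was given by name and holds 9 genes: the arginases Arg1 and Arg2, the synthetic enzymes Odc1, Srm, Sms and Amd1, the acetyltransferase Sat1, and the regulators Oaz1 and Azin1. All 9 were among the 53465 genes of the count table, and 8 of them, all but Arg2, passed the filter on low counts that left 11742 genes to test. RNA was sequenced from ILC2 sorted by flow cytometry out of the first 5 cm of the intestine of untreated C57BL/6 mice aged 6 to 10 weeks and kept free of specific pathogens. There were 4 libraries in each of 4 genotypes.

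The Alox5 KO mice lacked Alox5, which encodes the enzyme that starts leukotriene synthesis, and were homozygous for the smart13 reporter at Il13. The Il25 KO mice lacked Il25, a cytokine of epithelial tuft cells, and were homozygous for smart13 and for the Yarg reporter at Arg1. The St2 KO mice lacked the IL-33 receptor ST2, encoded by Il1rl1, and were likewise homozygous for smart13 and Yarg. The WT mice were homozygous for smart13 alone. Every group thus carried a modified Il13 locus, while the modified Arg1 locus was present in Il25 KO and St2 KO mice and absent from Alox5 KO and WT mice. The loss of Il25 or of ST2 and the Yarg allele therefore cannot be told apart where Il25 KO or St2 KO is set against WT. Alox5 KO against WT, and Il25 KO against St2 KO, compare like Arg1 alleles. Nothing in the labels ties a library to a mouse of its own, and p-values therefore cover the spread between libraries, which may be technical.

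Arginases cleave arginine to urea and ornithine, in the cytosol for the Arg1 product and in the mitochondrion for the Arg2 product. Ornithine decarboxylase, encoded by Odc1, makes putrescine, and spermidine synthase (Srm) and spermine synthase (Sms) extend it with aminopropyl groups that depend on the decarboxylase encoded by Amd1. Sat1 acetylates spermidine and spermine for export or oxidation. Antizyme, encoded by Oaz1, binds ornithine decarboxylase and sends it to the proteasome, and the antizyme inhibitor encoded by Azin1 takes antizyme away. Mouse ILC2 are known to express arginase 1 at rest, which is why an Arg1 reporter is used to find them.

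Sequences are shown for Oaz1 and Odc1, since antizyme controls ornithine decarboxylase. Antizyme is made only when ribosomes shift frame on its mRNA, which polyamines promote. The shift site is given because it is where the abundance of the pathway's products acts on Oaz1, a step that read counts do not measure. It lies on chromosome 10, is read 5′ to 3′ from the GENCODE M21 transcript Oaz1-206, and has in capitals the last codon of the first frame and the stop codon that follows it.
Oaz1 frameshift site: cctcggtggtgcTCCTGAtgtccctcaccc
For Odc1, whose level separated Il25 KO from St2 KO, the RefSeq window upstream of the gene on GRCm38.p6 (chr12:17544623-17544793, + strand) is given up to the base before the GENCODE gene start, with GC boxes (GGGCGG on either strand) in capitals.
Odc1 upstream window: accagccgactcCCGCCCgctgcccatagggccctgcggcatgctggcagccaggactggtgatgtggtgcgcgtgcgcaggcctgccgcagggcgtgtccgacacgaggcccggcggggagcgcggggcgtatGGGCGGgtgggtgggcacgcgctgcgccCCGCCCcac
The whole 250-base RefSeq window of Odc1 held 4 GC boxes, 3 of them in the printed stretch, and 32.7% of the 32851 mouse promoter windows of that length held at least 1. On neither strand did it hold the E-box CACGTG, found in 6.02% of all windows, the TATA motif TATAAA, found in 12.4%, the cyclic AMP element TGACGTCA, found in 1.55%, or the AP-1 motif TGANTCA, found in 6.75%. G and C made up 80.0% of the bases of the window. These matches describe the letters of this window alone, and the rest of the gene was not searched. RefSeq windows were matched for 5 of the 9 genes.

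Total counts per library ran from 2086864 to 3216937, and levels are given as CPM, the depth-scaled share of a library's counts that fall on a gene, from column totals. The sample codes put the libraries into sets called TS (replicates 1 and 2 of every genotype), TT (replicates 3 and 4 of Alox5 KO and WT) and TY (the same replicate numbers of Il25 KO and St2 KO), with no meaning given for the letters. Sms and Sat1 are X-linked, and the sets differed in the X-inactivation transcript Xist, with 982 to 1682 counts in each TY library and at most 7 elsewhere, and in the Y-linked Ddx3y, with at most 2 counts in TY libraries and at least 709 elsewhere. Set was therefore a term of the model. In Alox5 KO libraries Alox5 itself lay between 4.78 and 11.98 CPM, all below the WT libraries at 76.0 CPM or more, whereas Il25 had no count in any library and Il1rl1 had 126 to 208 CPM in St2 KO libraries, overlapping WT at 169 to 246 CPM, so gene counts do not check those labels. All 15 ILC2 markers examined were detected. Their summed level was 6706 to 7932 CPM in Alox5 KO and 6896 to 7562 CPM in Il25 KO. It was 5984 to 6814 CPM in St2 KO and 6915 to 7152 CPM in WT, so St2 KO lay below Il25 KO and WT. In St2 KO over WT 14 of the 15 had a negative log2 fold change (median -0.158), and 0 were called. Markers of other lymphocytes were present too: 15 B and plasma cell markers summed to 1040 to 3139 CPM and 11 T cell markers to 607 to 866 CPM. The source of those transcripts was not tested.

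Ranked per length of exon, arginase 1 was the most abundant transcript of the set in ILC2 with an unmodified Arg1 locus. Arg1 averaged 173 ± 21.1 CPM per kb in Alox5 KO and 151 ± 15.7 CPM per kb in WT (SD, n = 4 each). Next in WT came Srm at 80.7 ± 8.15, Sat1 at 48.2 ± 4.18 and Odc1 at 40.2 ± 4.33 CPM per kb. Sat1 and Odc1 were neighbours whose means lay within 2 SDs of each other, and so were the next pair, Azin1 at 22.2 ± 3.22 and Oaz1 at 19.0 ± 0.857 CPM per kb. Sms at 6.80 ± 1.19 and Amd1 at 3.64 ± 0.439 CPM per kb were low, and Arg2 was close to 0 with 1 count in 4 WT libraries. In the Yarg-bearing groups Arg1 dropped to the sixth place, with 9.43 ± 1.71 CPM per kb in the Il25 KO libraries and 10.0 ± 3.41 CPM per kb in the St2 KO libraries, and Srm stood first. Taken per length of coding sequence, Sat1 moved above Srm and Azin1 above Odc1 in WT. On that scale Sat1 and not Srm stood first in Il25 KO and in St2 KO, and Arg1 had rank 7 in both.

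**Figure D1:**
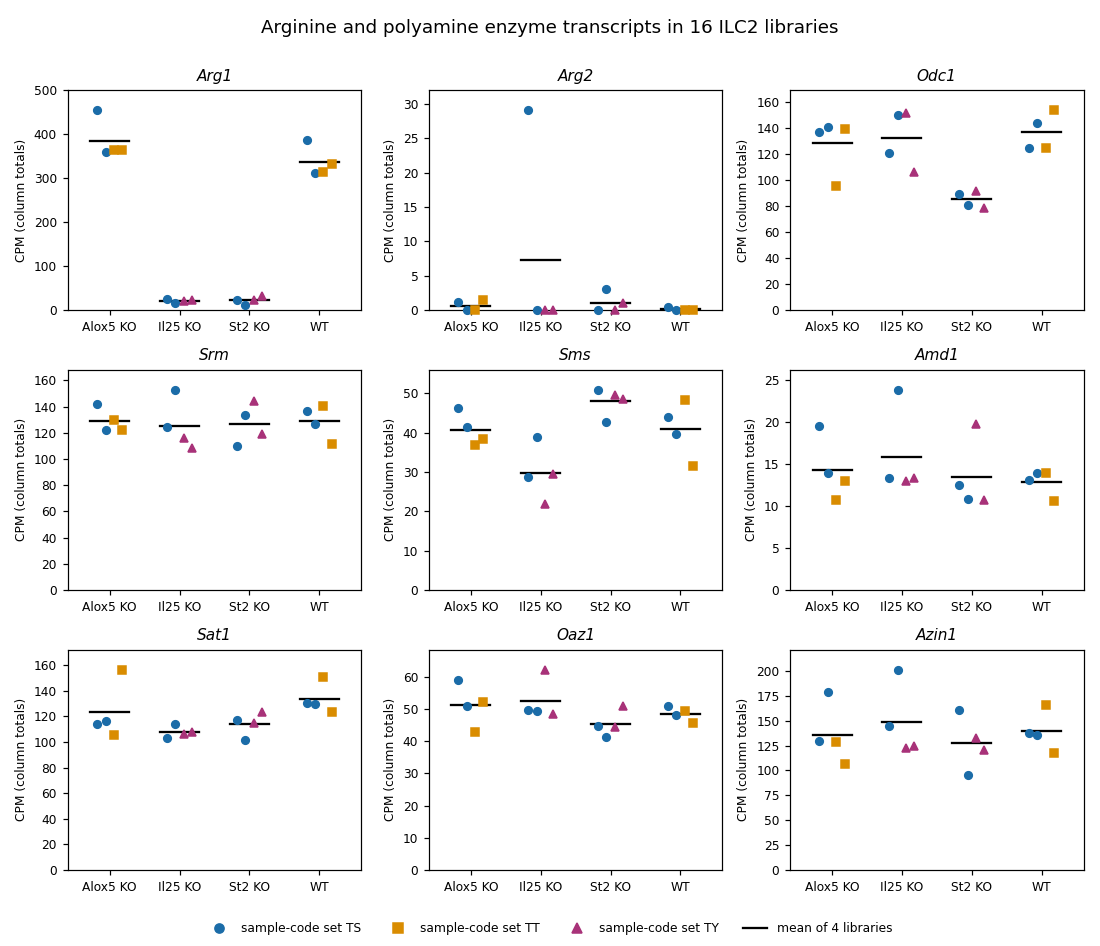
Level of each of the 9 genes in CPM of the column total (vertical axis, linear, from 0) in the 16 libraries, grouped by genotype; each point is a library, its shape and colour give the sample-code set, and the bar is the mean of 4 libraries. Arg1 is at 12.75 to 31.3 CPM in the 8 Il25 KO and St2 KO libraries and at 310.4 CPM or more in the others. Odc1 is at 78.8 to 92.0 CPM in the 4 St2 KO libraries, and Arg2 has 1 high library, Il25 KO replicate 1 at 29.2 CPM.

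Arg1 was 18.6-fold lower in Il25 KO and 18.3-fold lower in St2 KO than in WT, and the Alox5 KO level did not pass the test. The 4 Alox5 KO libraries had 455, 358, 363 and 363 CPM. The 4 Il25 KO libraries had 24.5, 15.8, 20.8 and 23.0 CPM. The 4 St2 KO libraries had 23.3, 12.7, 21.9 and 31.3 CPM, and the 4 WT libraries 386, 310.4, 314 and 332 CPM. The 8 libraries with the Yarg allele thus lay together at the bottom, with no overlap with the 8 libraries without it, and still held 41 to 91 counts each. Il25 KO and WT did not overlap in 6.78% of all tested genes, and St2 KO and WT in 8.47%. The share for 8 libraries against 8 was not counted. In the edgeR quasi-likelihood test the log2 fold change was -4.22 ± 0.202 (SE) for Il25 KO over WT (adjusted p = 4.62e-10) and -4.19 ± 0.199 for St2 KO over WT (adjusted p = 3.83e-10), the smallest p of all genes in each comparison. Within set TS alone it was -4.08 for Il25 KO and -4.31 for St2 KO. In sorted bulk cells, fewer cells with Arg1 RNA and less Arg1 RNA per cell cannot be told apart. Whether RNA of the modified Arg1 allele is counted in full on the reference gene was not tested.

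Where the Arg1 alleles were alike, Arg1 did not pass the test. The log2 fold change was 0.21 ± 0.107 for Alox5 KO over WT, with a 95% interval of -0.02 to 0.43 and an edgeR adjusted p of 0.705. The Alox5 KO and WT libraries overlapped, although the 2 sets gave 0.22 and 0.19. Il25 KO over St2 KO gave -0.03 ± 0.241, with an interval of -0.53 to 0.48, so a difference of the size seen against WT lies far outside it. No 50-base word of Arg1 occurred in transcripts of another gene, and no annotated exon of another gene overlapped it. Macrophages, which can also express arginase 1, and dendritic cells left a low summed level of their markers: 13.9 to 30.5 CPM in Alox5 KO, 10.8 to 80.6 CPM in Il25 KO, 16.2 to 22.1 CPM in St2 KO and 19.6 to 48.7 CPM in WT. Of these 16 markers 15 had a count somewhere and Fcgr1 had none, and the summed ranges of the 4 groups overlapped. Only 3 averaged over 1 CPM: Xcr1, a dendritic cell gene, Cd68 and Lyz2. Xcr1 led the sum, with 45.6 of 48.7 CPM in WT replicate 1, so the sum says little of macrophages. Cd68 at 20.0 CPM and Lyz2 at 8.96 CPM were highest in Il25 KO replicate 3. The part of macrophages and dendritic cells in the Arg1 values was not tested.

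Genes whose level followed that of Arg1 most closely over the 16 libraries were Hmgb1-ps8 (Pearson r = 0.983), Ndufa4 (0.948) and Gm26740 (0.929), out of 9986 genes compared. These are descriptive values, since the points share genotype. Hmgb1-ps8, a processed pseudogene, and Gm26740, a non-coding antisense gene, both lie on chromosome 10, as Arg1 does, at 2.65 and 2.61 Mb from it. Hmgb1-ps8 averaged 17.8 ± 6.26 CPM in Alox5 KO, 0.0898 ± 0.180 CPM in Il25 KO, 0.0843 ± 0.169 CPM in St2 KO and 12.5 ± 1.89 CPM in WT (SD, n = 4 each). Gm26740 averaged 105 ± 10.3 CPM in Alox5 KO, 60.6 ± 11.7 CPM in Il25 KO, 55.3 ± 7.72 CPM in St2 KO and 121 ± 10.3 CPM in WT. Ndufa4, a mitochondrial respiratory chain protein encoded on chromosome 6, averaged 146 ± 28.2 CPM in Alox5 KO, 74.0 ± 7.71 CPM in Il25 KO, 81.7 ± 8.79 CPM in St2 KO and 136 ± 2.92 CPM in WT.

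The surroundings of Arg1 were then examined, a window chosen after these positions had been seen. Of 55 tested genes within 10 Mb of Arg1, 3 were called in Il25 KO over WT (5.45%, against 0.385% of 11686 genes elsewhere), 4 in St2 KO over WT (7.27%, against 0.257%) and 0 in Alox5 KO over WT, where 12 genes were called elsewhere. Both comparisons of a Yarg-bearing group with WT called Hmgb1-ps8, Gm26740 and H60b, and the fourth gene of St2 KO over WT was Tnfaip3, lower in St2 KO. Hmgb1-ps8 and Gm26740 had prompted the window and are counted in it, so its shares do not test for an excess near Arg1. Il25 KO over St2 KO, with like Arg1 alleles, called 3 genes of the window (5.45%, against 1.22% elsewhere), and these were Tnfaip3, Perp and C920009B18Rik. H60b, which encodes a ligand of the activating receptor NKG2D, was higher rather than lower, at 54.8 ± 9.03 CPM in Il25 KO libraries and 44.2 ± 10.4 CPM in St2 KO libraries, against 15.3 ± 1.46 CPM in WT. The edgeR log2 fold change of H60b was 2.00 ± 0.325 (adjusted p = 0.00443) for Il25 KO and 1.64 ± 0.333 (adjusted p = 0.0410) for St2 KO over WT, and 0.37 ± 0.199 for Il25 KO over St2 KO (adjusted p = 0.534). All 3 genes kept their direction in both comparisons under each of 26 alternative settings, but the calls held unevenly. Gm26740 was called in 25 of the 26 for Il25 KO and in 26 for St2 KO over WT, H60b in 24 and in 9, and Hmgb1-ps8 in 7 and in 11. Over these settings the called genes of the window numbered 0 to 3 in Il25 KO over WT, 1 to 5 in St2 KO over WT and 1 to 3 in Il25 KO over St2 KO, and with set TS alone they numbered 0, 1 and 1. On GRCm38 H60b spans chr10:22158586-22288849 (+ strand) and Gm26740 chr10:22187013-22302835 (- strand), and Hmgb1-ps8 lies within both, so unstranded reads of the 3 cannot be told apart with certainty. Med23, the protein-coding gene next to Arg1, had 88.1 ± 20.2 CPM in Il25 KO, 83.2 ± 5.89 CPM in St2 KO and 78.5 ± 19.2 CPM in WT and was not called. Whether the region around the modified Arg1 locus differs in these mice was not tested.

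Arg2 was near absent, with 1 library as the exception. Il25 KO replicate 1 held 81 counts (29.2 CPM), St2 KO replicate 2 held 10 (3.11 CPM), and each of the other 14 libraries held at most 3. The same library stood apart in epithelial transcripts: the 18 epithelial markers summed to 373 CPM there and to between 12.8 and 67.4 CPM in the other 15 libraries. Krt19 at 84.3, Krt8 at 76.0, Epcam at 66.7 and Olfm4 at 48.6 CPM were its leading markers, while Alpi, Muc2, Krt20, Apoa4, Sis, Reg3b, Apoa1 and Dclk1 were at 0 in it. The part of epithelial transcripts in the Arg2 counts was not tested. In addition, 20.0% of the exonic bases of Arg2 overlap Vti1b on the opposite strand and 8.1% an antisense gene, and the kit does not mark strand. With so few counts Arg2 was not tested, and its group means are set by single libraries.

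**Figure D2:**
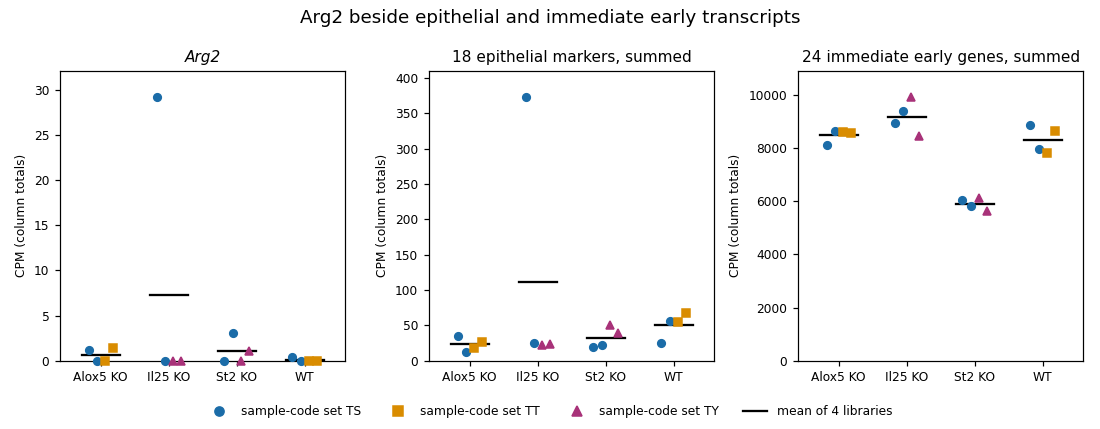
Arg2 and summed marker lists in CPM of the column total by library (vertical axes linear, from 0), grouped by genotype, with the sample-code set as shape and colour. Il25 KO replicate 1 is highest both in Arg2 (29.2 CPM) and in summed epithelial markers (373 CPM), and the St2 KO libraries are lowest in summed immediate early transcripts (5631 to 6111 CPM).

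Of the 8 genes tested, 0 were called in Alox5 KO over WT, where 12 genes were called in all (0.102%). In that comparison none of the 8, and 842 of all 11742 tested genes, had an unadjusted p under 0.05 in edgeR. DESeq2 called 0 of the 8 and 53 genes in all. In Il25 KO over WT and in St2 KO over WT 1 gene was called, Arg1, against 0.417% and 0.298% of all tested genes. In Il25 KO over St2 KO 1 gene was called, Odc1, against 1.24% of all tested genes. The test over any of the 4 genotypes called 1, Arg1, against 1.17%. The median log2 fold change of the 8 was 0.01 for Alox5 KO, -0.03 for Il25 KO and -0.15 for St2 KO over WT, beside 0.01, 0.00 and 0.01 over all tested genes, and it was 0.14 beside -0.01 for Il25 KO over St2 KO. These comparisons with WT share the WT libraries.

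**Figure D3:**
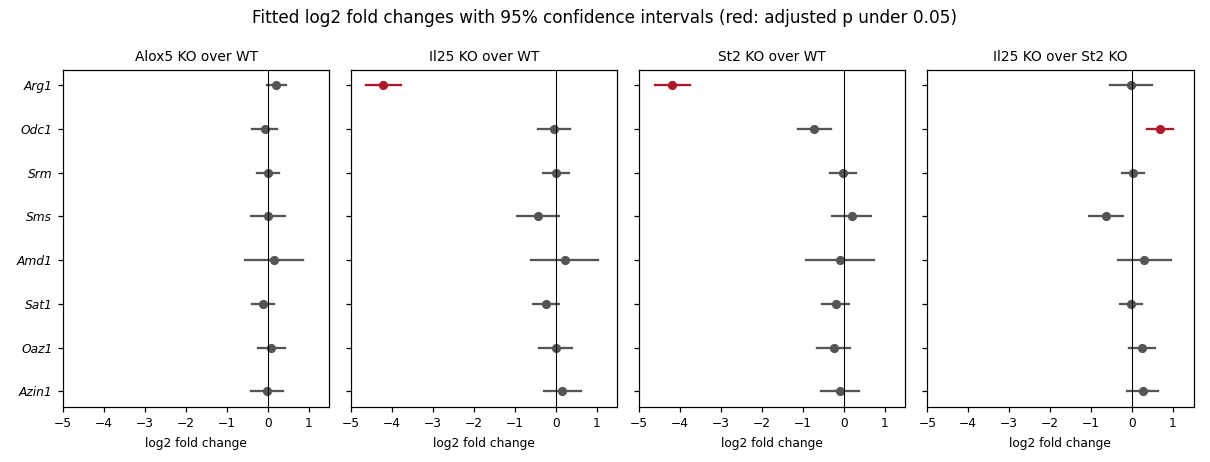
Log2 fold change of the 8 tested genes in each comparison (horizontal axis), from 1 edgeR model of 16 libraries; points are estimates, lines are 95% intervals, and red marks an adjusted p under 0.05. Apart from Arg1 in the 2 comparisons of a Yarg-bearing group with WT, estimates lie within 1 log2 unit of 0, and Odc1 is the called gene of Il25 KO over St2 KO (0.68).

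Odc1, which encodes the first and tightly controlled enzyme of polyamine synthesis, was 1.60-fold higher in Il25 KO than in St2 KO. The 4 Il25 KO libraries had 121, 150.4, 152 and 106 CPM, and the 4 St2 KO libraries 89.4, 80.8, 92.0 and 78.8 CPM. The 4 Alox5 KO libraries had 137, 141, 96.0 and 139 CPM, and the 4 WT libraries 125, 144, 125 and 154 CPM. Il25 KO and St2 KO thus did not overlap, as was so for 5.95% of all tested genes. The library nearest to the St2 KO values was Alox5 KO replicate 3. Means were 129 ± 21.8 CPM in Alox5 KO, 132 ± 22.5 CPM in Il25 KO, 85.3 ± 6.44 CPM in St2 KO and 137 ± 14.8 CPM in WT (SD, n = 4 each). In edgeR Il25 KO over St2 KO gave a log2 fold change of 0.68 ± 0.155, with a 95% interval of 0.35 to 1.0 and an adjusted p of 0.0341, and it was 0.73 within set TS and 0.63 within set TY.

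Against WT the Odc1 values of St2 KO had a log2 fold change of -0.72 ± 0.188 (95% interval -1.12 to -0.33), which did not pass the edgeR threshold (adjusted p = 0.204). Without the sample-code term it did (adjusted p = 0.0398), and DESeq2 gave 0.0652. The values for Alox5 KO and Il25 KO over WT were -0.08 ± 0.151 and -0.05 ± 0.183. The groups of St2 KO and WT did not overlap, as was so for 8.47% of all tested genes. The call for Il25 KO over St2 KO was lost when any 1 of 6 of the 16 libraries was left out (Il25 KO replicates 2 and 3, St2 KO replicates 1, 2 and 4, WT replicate 2), with edgeR adjusted p from 0.0525 to 0.168, while the log2 fold change over all 16 omissions ran from 0.58 to 0.80. It was also lost with no expression filter (edgeR adjusted p = 0.0569), with set TS alone (0.235), with the replicate number as a block (0.0528) and on omitting the 3 libraries low in plasma cell RNA, Alox5 KO replicates 1 and 2 and St2 KO replicate 1 (0.112).

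Odc1 shares sequence with other genes: 24.3% of its 3750 50-base words occur in their transcripts. The 9 genes with at least 100 shared words, called copies here, held 1901 counts against 5070 of Odc1. Of these counts 1809 were in AW146154, which shares only 242 words, whereas Gm7993, with 439 shared words, held 6. How many of the counts came from Odc1 RNA was not tested. With all those counts added, which joins AW146154 as a whole to Odc1, the log2 value for Il25 KO over St2 KO was 0.46 (edgeR adjusted p = 0.0771). The summed level of 24 immediate early genes, transcripts that respond fast to stimulation and to cell handling, was likewise lowest in St2 KO, at 8125 to 8652 CPM in Alox5 KO, 8439 to 9916 CPM in Il25 KO, 5631 to 6111 CPM in St2 KO and 7813 to 8868 CPM in WT. Of its 23 tested members, 13 were called higher in Il25 KO than in St2 KO, against 1.24% of all tested genes called in either direction, and 6 were called lower in St2 KO than in WT, against 0.298%. With set TS alone the 13 became 7, and on omitting the same 3 libraries, or WT replicate 1, the 6 became 3. The summed level of 35 cell cycle genes was 1097 to 1501 CPM in Alox5 KO and 1094 to 1561 CPM in Il25 KO. It was 1096 to 2183 CPM in St2 KO and 1342 to 2174 CPM in WT. Of these, 34 were tested and edgeR called 0 in any pairwise comparison. Their median log2 fold change was -0.81 for Il25 KO over St2 KO (27 negative) and 0.50 for St2 KO over WT (25 positive). The parts of the immediate early and cell cycle genes in the Odc1 values were not tested. The transcription factor Myc, for which Odc1 is a textbook target, averaged 150.1 ± 36.3 CPM in Alox5 KO, 163 ± 26.4 CPM in Il25 KO, 125 ± 25.3 CPM in St2 KO and 207 ± 10.8 CPM in WT. Its edgeR log2 fold change over WT was -0.448 ± 0.142 in Alox5 KO (adjusted p = 0.45), -0.265 ± 0.17 in Il25 KO (0.69) and -0.685 ± 0.172 in St2 KO (0.1655). Il25 KO over St2 KO gave 0.42 ± 0.145 (adjusted p = 0.226). None of 20 genes of a MYC and growth list was called by edgeR in any of the 4 pairwise comparisons. An unadjusted p under 0.05 was reached by 4 genes in Alox5 KO over WT and 0 in Il25 KO over WT. It was reached by 2 in St2 KO over WT and 1 in Il25 KO over St2 KO. Myc was among them in all but Il25 KO over WT. Over all 11742 tested genes the numbers were 842, 1092, 880 and 1321 in the same order. DESeq2 called 1 of the 20 in St2 KO over WT, and 67 genes in all.

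The genes most like Odc1 over the 16 libraries were Muc1 (Pearson r = 0.925), which encodes a membrane mucin, Kdm2b (0.922), a histone demethylase, and Gstp1 (0.905), a glutathione transferase. They lie on chromosomes 3, 5 and 19, away from Odc1 on chromosome 12. Muc1 averaged 56.9 ± 17.2 CPM in Alox5 KO, 62.5 ± 27.1 CPM in Il25 KO, 23.0 ± 6.51 CPM in St2 KO and 59.3 ± 8.40 CPM in WT (SD, n = 4 each). The St2 KO libraries were the lowest group for Kdm2b as well, at 27.2 ± 3.82 CPM, and for Gstp1, at 85.9 ± 0.978 CPM, where the WT values were 49.2 ± 9.07 and 98.6 ± 3.76 CPM.

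None of the enzymes downstream of putrescine was called. Srm, spermidine synthase, had the smallest spread of the set: over all 16 libraries it lay between 109 and 153 CPM, a 1.41-fold range. Its 4 means were 129 ± 9.24 CPM in Alox5 KO, 125 ± 19.4 CPM in Il25 KO, 127 ± 15.3 CPM in St2 KO and 129 ± 13.0 CPM in WT. The 95% intervals of its log2 fold changes over WT ran from -0.26 to 0.28 for Alox5 KO, -0.32 to 0.33 for Il25 KO and -0.35 to 0.30 for St2 KO.

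Sms, spermine synthase, had 28.8, 38.9, 22.0 and 29.5 CPM in Il25 KO and 50.9, 42.6, 49.7 and 48.5 CPM in St2 KO. The 2 groups did not overlap, as was so for 5.95% of all tested genes, and the log2 fold change of -0.63 ± 0.194 did not pass the edgeR threshold (adjusted p = 0.161). Its levels were 46.2, 41.3, 36.9 and 38.3 CPM in Alox5 KO and 44.0, 39.7, 48.2 and 31.5 CPM in WT, between the other groups and overlapping both. Sms is X-linked, and the value for Il25 KO over St2 KO was -0.41 ± 0.271 in set TS and -0.88 ± 0.291 in set TY. Copies with shared sequence held 1141 counts against 1705 of Sms, 1110 of them in Gm8234, which shares only 118 of the 6052 words of Sms. Sms-ps, with 1052 shared words, held 31 counts. How many of these counts came from Sms RNA was not tested, so its level is uncertain.

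Amd1, which encodes the decarboxylase that supplies aminopropyl groups, was the least abundant tested gene of the set, with 26 to 65 counts per library. It averaged 14.3 ± 3.74 CPM in Alox5 KO, 15.9 ± 5.32 CPM in Il25 KO, 13.4 ± 4.27 CPM in St2 KO and 12.9 ± 1.56 CPM in WT. At this depth its 95% intervals were wide, from -0.60 to 1.03 on the log2 scale for Il25 KO over WT. A change within these bounds remains possible. Of its 50-base words 78.1% occur in other genes, mainly Amd2, and the 7 copies held 25 counts against 600 of Amd1.

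Sat1, which starts the breakdown of spermidine and spermine, had 103, 114, 107 and 108 CPM in Il25 KO and 131, 130.0, 150.5 and 124 CPM in WT. These groups did not overlap, as was so for 6.78% of all tested genes, and the log2 fold change of -0.24 ± 0.156 did not pass (edgeR adjusted p = 0.694). Sat1 averaged 123 ± 22.8 CPM in Alox5 KO and 114 ± 9.32 CPM in St2 KO, both overlapping WT. Il25 KO over St2 KO, where the sets are balanced, gave -0.04 ± 0.128 for this X-linked gene.

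The regulators of ornithine decarboxylase did not pass in any comparison. Oaz1, antizyme, averaged 51.2 ± 6.60 CPM in Alox5 KO, 52.5 ± 6.56 CPM in Il25 KO, 45.4 ± 4.0 CPM in St2 KO and 48.6 ± 2.19 CPM in WT. Azin1, the antizyme inhibitor, averaged 136 ± 30.4 CPM in Alox5 KO, 148 ± 36.7 CPM in Il25 KO, 127 ± 27.0 CPM in St2 KO and 139 ± 20.1 CPM in WT, with a range over all libraries of 95.7 to 201 CPM. For Il25 KO over St2 KO, where Odc1 was called, Oaz1 gave a log2 fold change of 0.25 ± 0.153 (interval -0.07 to 0.57) and Azin1 0.26 ± 0.180 (interval -0.11 to 0.64), so both estimates had the sign of Odc1 and neither was called. The pseudogene Oaz1-ps held 193 counts against 2094 of Oaz1.

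Setting Odc1 against its partners within a library removes the scaling of the library. The ratio of Odc1 to Oaz1 counts was 2.24 to 2.77 in Alox5 KO, 2.19 to 3.04 in Il25 KO, 1.55 to 2.07 in St2 KO and 2.45 to 3.38 in WT, so the 4 St2 KO libraries were the lowest of the 16. The ratio of Odc1 to Srm was 0.603 to 0.813 in St2 KO, overlapping only Alox5 KO replicate 3 at 0.740 among the other libraries. The ratio of Odc1 to Azin1 was 0.557 to 0.844 in St2 KO and overlapped every other group. Sms over Srm was 0.190 to 0.271 in Il25 KO and 0.282 or more in the other 12 libraries. These ratios use the counts that chose them for display, are not corrected for length, and were not tested. How many other gene pairs set a group apart in this way was not counted.

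**Figure D4:**
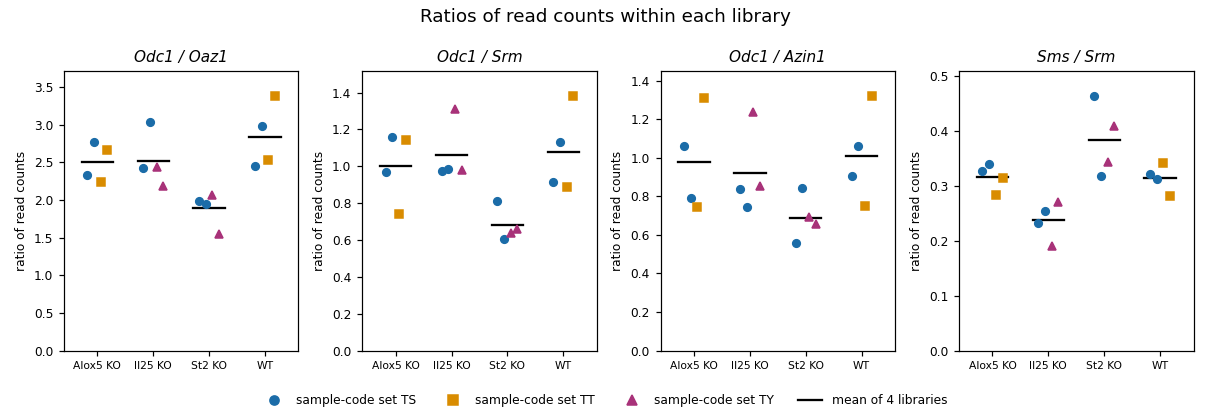
Ratios of counts between pairs of the genes within each library (vertical axes linear, from 0; no unit), grouped by genotype, with the sample-code set as shape and colour and the bar as the mean of 4 libraries. The 4 St2 KO libraries have the lowest ratios of Odc1 to Oaz1 (1.55 to 2.07), and the 4 Il25 KO libraries the lowest ratios of Sms to Srm (0.190 to 0.271).

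Around these enzymes, edgeR called none of the wider arginine and polyamine genes, and DESeq2 called 1, Smox. Of 29 listed genes of arginine supply and disposal 28 were in the table and 13 were tested, and edgeR called 0 in each of the 4 pairwise comparisons. An unadjusted edgeR p under 0.05 was reached by 2 in Alox5 KO over WT and 3 in Il25 KO over WT. It was reached by 1 in St2 KO over WT and 1 in Il25 KO over St2 KO. Over all 11742 tested genes the numbers were 842, 1092, 880 and 1321 in the same order. DESeq2 called 0 of these 13. Slc3a2, the heavy chain of amino acid transporters, was the most abundant by CPM at 402 to 528 CPM, followed by Oat, ornithine aminotransferase, at 98.3 to 212 CPM and Aldh18a1, which makes a proline and ornithine precursor, at 62.2 to 112 CPM. The cationic amino acid transporter Slc7a1 was present at 55.1 ± 5.62 CPM in Alox5 KO, 59.3 ± 9.82 CPM in Il25 KO, 53.3 ± 13.6 CPM in St2 KO and 58.8 ± 2.88 CPM in WT, whereas Slc7a2, another importer of arginine, had no count in any library. Nos2, the inducible nitric oxide synthase that competes for arginine, had 11 counts over the 4 Alox5 KO libraries, 6 in Il25 KO, 2 in St2 KO and 13 in WT. Slc7a1, Slc7a2 and Nos2 were picked from the list for their roles after their values were seen.

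Of 27 listed genes of polyamine turnover, transport and use 17 were tested, and edgeR called 0 in each pairwise comparison. An unadjusted edgeR p under 0.05 was reached by 0 in Alox5 KO over WT and 1 in each of the other 3. Over all tested genes it was reached by 842 in Alox5 KO over WT and 1092 in Il25 KO over WT. The numbers were 880 in St2 KO over WT and 1321 in Il25 KO over St2 KO. Mat2a at 319 to 582 CPM, which makes the methyl donor that Amd1 decarboxylates, Eif5a at 354 to 484 CPM, the translation factor that carries a spermidine-derived residue, and Mat2b at 219.5 to 316 CPM were the most abundant by CPM. DESeq2 called 82 genes in all in Il25 KO over WT and 246 in Il25 KO over St2 KO. Smox, spermine oxidase, which turns spermine back into spermidine, was the gene of the list called in both. It averaged 17.9 ± 10.6 CPM in Alox5 KO, 2.48 ± 1.43 CPM in Il25 KO, 12.1 ± 7.93 CPM in St2 KO and 16.9 ± 8.43 CPM in WT. The 4 Il25 KO libraries (1.44 to 4.48 CPM) lay below all 4 WT libraries (10.8 to 29.3 CPM) and overlapped St2 KO (3.11 to 20.6 CPM). Il25 KO and WT did not overlap in 6.78% of all tested genes. In edgeR its log2 fold change was -2.95 ± 0.833 (adjusted p = 0.201) for Il25 KO over WT and -2.24 ± 0.766 (adjusted p = 0.215) for Il25 KO over St2 KO.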

How the data were processed

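The authors deposited 1 table of raw counts per gene for all 16 libraries, with 0 columns outside the labelled samples. The build was GRCm38 and the tools HTSeq 0.4.1, STAR 2.4.2a, FastQC 0.11.3 and Picard 1.134, per the submitters' processing notes; their settings are not given in the sources used here. Libraries were made with Nextera XT, per the labels. Of 53471 rows, 6 with a repeated identifier were dropped; rows without a symbol held 0.184% of counts. Counts were tested with the quasi-likelihood test of edgeR 4.0.16 in R 4.3.3 (TMM scaling, default expression filter), with genotype and sample-code set in 1 model with 10 residual degrees of freedom and Benjamini-Hochberg adjustment over 11742 genes at 0.05. The SE is the log2 fold change divided by the square root of F. DESeq2 1.42.0 was an alternative. Levels are CPM of column totals, and intervals use a confidence level of 95%. Gene positions and lengths come from GENCODE M21, promoters from RefSeq. The procedure was tested on simulated data.

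The 9 genes, the gene lists, the motifs and the tests were chosen with earlier results of these data known. Described genes were all 9, the 3 most abundant and any called gene of each pathway list, and the 3 genes with the highest Pearson r of log2 CPM (prior count 2) to Arg1 and Odc1 among genes of average log2 CPM at least 3; Slc7a1, Slc7a2, Nos2, Smox, Myc and the neighbours of Arg1 were added after values were seen. No 2 libraries held identical counts.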

Additional observations from a re-analysis of the deposited data

Results flagged for a closer look

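Gaps of single libraries from the others of their group were examined for the 9 genes in 4 genotypes. Of 36 such groups 6 had a library farther from the rest than Dixon's 95% critical value for 4 samples allows; chance flags about 1 in 20. Arg1 at 455 CPM was high in Alox5 KO replicate 1, beside 358 to 363 CPM in the other 3. Arg2 at 29.2 CPM stood alone in Il25 KO replicate 1, the library with 373 CPM of summed epithelial markers. Arg2 at 0.386 CPM in WT replicate 1 is a single count. Odc1 at 96.0 CPM was low in Alox5 KO replicate 3. Amd1 at 23.9 CPM was high in Il25 KO replicate 2, from 65 counts. Oaz1 at 62.3 CPM was high in Il25 KO replicate 3.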

How the results depend on the processing

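Fold changes and calls of the 8 tested genes, of H60b, Hmgb1-ps8, Gm26740 and Smox, and the call counts of the Arg1 window and the immediate early list were recomputed under 10 other settings and with each of the 16 libraries left out. Levels in CPM, ratios, correlations and the other lists were not, apart from DESeq2 for the pathway, MYC and cell cycle lists. Arg1 was called lower in Il25 KO and in St2 KO than in WT under all 26. The number of genes of the set called in Il25 KO over St2 KO was 1, and it was 0 with no expression filter, with set TS alone, with the replicate block, without Alox5 KO replicates 1 and 2 and St2 KO replicate 1, which were low in plasma cell transcripts, and with counts of copies added, a setting chosen after seeing the data; the direction of Odc1 did not change. In St2 KO over WT the number was 2 with no sample-code term, and over any of the 4 genotypes it was 2 with DESeq2 and 2 with no sample-code term, Odc1 being the second gene. With 1 library left out, the numbers ranged from 0 to 0 for Alox5 KO over WT, 1 to 1 for Il25 KO and for St2 KO over WT, 0 to 1 for Il25 KO over St2 KO and 1 to 2 over any genotype. Among the 29 log2 fold changes not called, 81 of 754 alternative values had another sign. Per coding length the WT ranks were 3 for Srm, 2 for Sat1, 5 for Odc1 and 4 for Azin1.

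Over all genes the number called ranged widely with the setting other than omissions: 12 (3 to 53) for Alox5 KO over WT, 49 (9 to 95) for Il25 KO over WT, 35 (21 to 67) for St2 KO over WT, 146 (33 to 246) for Il25 KO over St2 KO and 137 (42 to 299) over any genotype. With a library left out they ranged from 6 to 20, 31 to 53, 19 to 45, 80 to 168 and 95 to 164. Whether replicate numbers pair the libraries is not settled. Same-numbered libraries had correlations of -0.0788 to 0.197 in their deviations from the group means, with 3 of 24 pairs over 0.1. After genotype and set the correlations were -0.288 to 0.077, but the fit itself lowers them for some pairs, so they cannot decide it. With the replicate block the Odc1 value for Il25 KO over St2 KO was 0.68 with an edgeR adjusted p of 0.0528. Depth limits Arg2 and Amd1 most. The causes of these changes were not tested.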
